A study of Bos taurus with 30 samples.

Results

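The let-7 family and miR-98 were followed in the arcuate nucleus (ARC) of the hypothalamus of 30 Holstein-Friesian bull calves. The members were chosen by name in the deposited table of mature microRNAs (miRNAs): bta-let-7a-5p, bta-let-7b, bta-let-7c, bta-let-7d, bta-let-7e, bta-let-7f, bta-let-7g, bta-let-7i and bta-miR-98. These are 9 of the 1030 mature miRNAs in the table, of which 863 had a read in at least 1 library. The prefix bta, for Bos taurus, is left out from here on.

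From 2 weeks of age, 15 calves received a high (HI) and 15 a moderate (MOD) dietary allowance, and the ARC was collected at 12 weeks, with 1 small RNA library per calf. The HI calves were offered 1.5 kg of milk replacer in 10 litres each day with concentrates without limit, and the MOD calves 0.5 kg of milk replacer in 4 litres with 0.5 kg of concentrates. No allele or agent separated the groups, and all calves were of the same breed and sex. The ARC holds neurons that sense metabolic status and that act on appetite and on the secretion of gonadotropin-releasing hormone, so the comparison asks whether early diet alters the miRNA of this region.

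The let-7 miRNAs and miR-98 share a seed, the stretch near the 5′ end of a miRNA with which it pairs to its target mRNAs, and so can bind many of the same mRNAs, among them those of HMGA2, MYC, the RAS genes and LIN28B. The RNA-binding proteins LIN28A and LIN28B in turn block the maturation of let-7 precursors, and the family rises as tissues mature, the brain included. The LIN28 and let-7 axis is also known to act on insulin signalling and glucose metabolism, and has been linked to the timing of puberty. Several members differ from each other at very few bases, so the level of a single member depends on how reads were assigned among near-identical sequences.

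Values are given as CPM, reads per 1000000 reads of a library whose size carries a TMM factor (a scaling by edgeR that keeps a few very abundant miRNAs from shifting all other values). Mature miRNAs are of nearly the same length, so these levels were compared between members with no correction for length. Between 6291376 and 21083250 reads per library fell on miRNAs. The libraries formed a class of 9 deep libraries (3 HI, 6 MOD), from 17193358 reads, and one of 21 shallow libraries (12 HI, 9 MOD), of up to 8988039 reads. Separately from depth, 9 libraries (5 HI, 4 MOD) stood apart by a list of 10 miRNAs of pituitary and other epithelium, among them miR-375, miR-182 and miR-200a. The summed level of this list ran from 10003 to 100739 CPM in those 9 libraries and from 2289 to 7130 CPM in the other 21, and 2 of its 10 miRNAs were at 0 in some library. The 8 miRNAs of the neuronal list were present in every library, with miR-9-5p at 11292 to 73041 CPM and miR-124a at 826 to 9705 CPM, and both were lowest in HI calf 7, the calf with the highest pituitary list. In bulk tissue, a change in the share of a cell type and a change in the RNA of each cell cannot be told apart.

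All 9 members were abundant in every calf. Together they took between 5.42% and 7.54% of the miRNA reads of a library, with a mean of 6.55% ± 0.503 (SD, n = 15) in HI calves and 6.41% ± 0.387 (SD, n = 15) in MOD calves. The lowest share was that of MOD calf 4 and the highest that of HI calf 10. On the TMM scale the order of the calves was another one, from a summed level of 53851 CPM in HI calf 8 to 87979 CPM in HI calf 7, whose values add up to 1429908, the most of any library. The ranges by diet below are on the TMM scale, and the calves at their ends can be others with no TMM factor, as for let-7e, whose lowest and highest calves were HI calf 3 and HI calf 6 on the TMM scale and MOD calf 4 and HI calf 15 without it. Where a result turns on the spread between calves, values per 1000000 reads with no TMM factor, a scale added after the data were seen, are given beside it. Ratios between members of a calf are the same on both scales. By mean level, let-7f and let-7a-5p were ranks 15 and 16 of the whole table, and let-7d, the scarcest member, was rank 124. Even let-7d rested on at least 2778 reads in each library, so counting error was small beside the differences between calves.

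The highest levels were those of let-7f and let-7a-5p, each made from more than 1 precursor gene, as the genome annotation described further on shows. In HI calves, let-7f had its lowest value at 12642 CPM, its median at 16053 CPM and its highest at 24076 CPM, against 12735, 15453 and 18485 CPM in MOD calves. The corresponding values of let-7a-5p were 12357, 16435 and 21986 CPM in HI calves and 13161, 15108 and 19391 CPM in MOD calves. For both miRNAs the groups overlapped over almost the whole range. With no TMM factor the lowest calves, MOD calf 14 for let-7f and MOD calf 4 for let-7a-5p, were MOD calves, where on the TMM scale HI calf 8 was the lowest for both. The means over all calves, 16255 ± 2594 CPM for let-7f and 16244.5 ± 2622 CPM for let-7a-5p (SD, n = 30), did not differ beyond their spread, since let-7f was the higher of the 2 in 19 of 30 calves. Each took 24.9% of the family's summed level on average.

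A middle group of let-7i, let-7g, miR-98, let-7c and let-7b followed. The level of let-7i ran from 4926 CPM through a median of 7430.1 to 15771 CPM in HI calves, and from 5146 through 6530.2 to 11981 CPM in MOD calves. A few calves of both diets were far above the rest. For let-7g, which RefSeq places within the gene of the chromatin regulator WDR82, the lowest, median and highest values were 5335, 6049 and 6989 CPM in HI calves and 5160.4, 6025 and 6633 CPM in MOD calves. The levels of miR-98 were 3608, 5951 and 9535 CPM in HI calves and 3789.6, 5217 and 7737 CPM in MOD calves. Both diets thus spanned a wide range of miR-98 and a narrow range of let-7g at almost the same mean, 5907 ± 1470.2 CPM and 6063 ± 454 CPM (SD, n = 30).

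Next in order, let-7c had values of 4697, 5301 and 8462 CPM in HI calves and 4633, 5239 and 6606 CPM in MOD calves. Those of let-7b were 3024, 4115 and 5902 CPM in HI calves and 3269, 3935 and 5172 CPM in MOD calves. As for the more abundant members, the MOD values lay almost wholly inside the HI range. The 2 least abundant members were let-7e, at 2591, 2905 and 3403 CPM in HI calves and 2623, 2895 and 3141 CPM in MOD calves, and let-7d. The levels of let-7d were 414, 474 and 556 CPM in HI calves and 411, 492 and 535 CPM in MOD calves, and it was the 1 member with the lower mean in HI calves.

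**Figure D1:**
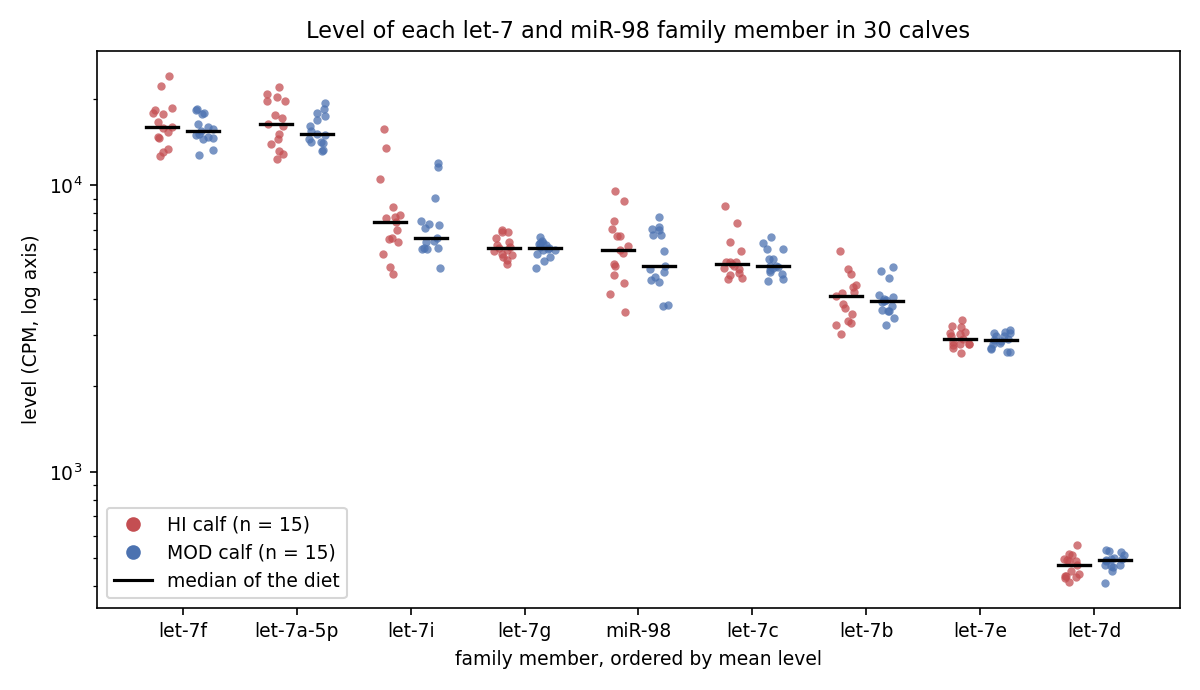
Level of each family member in CPM on a log axis, with 1 point per calf, HI in red and MOD in blue, and a bar at the median of each diet (n = 15 each). The diets overlapped for every member. The points of let-7i and miR-98 are the most spread out, with 3.20-fold and 2.64-fold between the lowest and the highest calf, against 1.31-fold for let-7e; per 1000000 reads with no TMM factor these are 1.96-fold, 3.43-fold and 1.75-fold.

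Read as an order, the levels formed 4 steps that held beyond the spread, taken as a mean log2 difference between neighbours larger than its SD over calves. The first step, from let-7a-5p down to let-7i, was present in 30 of 30 calves, with a log2 difference in level of 1.12 ± 0.29 (SD). The step from let-7c to let-7b was present in 28 of 30 calves (0.44 ± 0.28), and that from let-7b to let-7e in 30 of 30 (0.47 ± 0.22). The widest was the last one, from let-7e to let-7d, at 2.60 ± 0.14 in 30 of 30 calves. Within the steps the order was not fixed. The level of let-7i was above let-7g in 27 of 30 calves, let-7g above miR-98 in 17 and miR-98 above let-7c in 18, and none of these neighbours differed beyond their spread.

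The diet comparison was made with limma over the 476 miRNAs that passed the filter on low counts, all 9 members included, and a miRNA was called where its fold change exceeded 1.5 and its adjusted p was below 0.1. None of the 9 members was called, and none of the 476 miRNAs was (0% called). At an unadjusted p under 0.05 there were 0 of 9 members, beside 21 of 476 miRNAs (4.41%). The mean log2 level was higher in HI calves for 8 of 9 members, let-7d being the exception, beside 235 of all 476 miRNAs (49.4%), and with scaling by library size alone 3 of these 8, let-7b, let-7e and let-7g, were lower. The median log2 fold change of the members was 0.044, the value of let-7c, which was 0.00015 without HI calf 7, and that of all miRNAs tested was -0.0022. The levels of the members are measured in the same calves, so their shared direction does not count as 9 separate observations.

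The size of each difference was small, and which member differed most depended on the setting. That of let-7i was a log2 fold change of 0.10 (SE 0.15) with a limma adjusted p of 0.982, and 10 of 15 HI calves lay above the MOD median, but without HI calf 7 it was 0.028. For miR-98 it was 0.094 (SE 0.13), from 0.045 without HI calf 4 to 0.15 without HI calf 2, and for let-7a-5p 0.084 (SE 0.084), with 11 and 10 of 15 HI calves above the MOD median. For let-7d the log2 fold change was -0.056 (SE 0.049), and 4 of 15 HI calves lay above the MOD median. With library size only let-7d differed most, at -0.099. In edgeR's and DESeq2's tests, which leave out HI calf 6, it was miR-98, at 0.12 and 0.13. Limma without HI calf 6 also gave a larger value for miR-98 (0.11) than for let-7i (0.044). Adjusted p-values of limma were 0.982 for 8 members and 0.985 for let-7b. Two-sided permutation tests with 100000 resamples gave unadjusted p-values from 0.184 for let-7d to 0.863 for let-7b. These data also bound the differences: the 95% interval lay within a 1.5-fold difference in either direction for 9 of 9 members, beside 382 of 476 miRNAs (80.3%). The widest intervals were -0.20 to 0.40 for let-7i and -0.17 to 0.36 for miR-98, and the narrowest was -0.060 to 0.12 for let-7e.

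**Figure D2:**
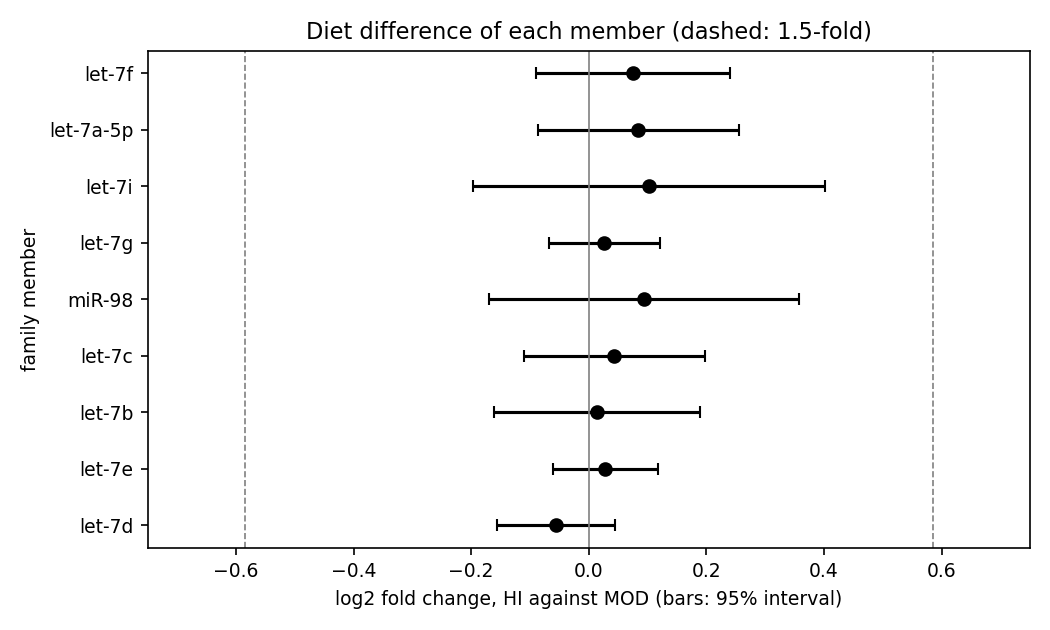
Log2 fold change of each member, HI against MOD, with its 95% interval from limma (15 calves per diet). Every interval crosses 0 and lies between the dashed lines, which mark a 1.5-fold difference.

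The direction of these differences rested in part on a class of calves. The 9 calves with the lowest animal codes (7 HI, 2 MOD) are a class found from the values in earlier work on these data and not given by the labels as a batch. The level of let-7f ranged from 16053 to 24076 CPM in these 9 calves and from 12642 to 18485 CPM in the other 21. Without TMM factors the range of the 9 lay inside that of the other 21, at 14975 to 18308 against 13486 to 19125 per 1000000 reads. The level of let-7i was 6988 to 15771 CPM in the 9 and 4926 to 11981 CPM in the others, and 6697 to 11153 against 5693 to 10749 per 1000000 reads. Of these 9 calves, HI calf 2, HI calf 6, HI calf 7 and MOD calf 2 also had libraries high in the pituitary list. On the TMM scale, HI calf 7 and HI calf 6 had the highest let-7i and let-7f of all calves. By its median let-7d was lower in the 9 calves with the lowest codes, at 411 to 516 CPM (median 435) against 434 to 556 CPM (median 492). With no TMM factor it was 361 to 419 (median 387) against 379 to 596 (median 547) per 1000000 reads. With the class of animal codes as a term, 6 of the 8 positive log2 fold changes became negative, for example 0.084 to -0.0094 for let-7a-5p and 0.10 to -0.065 for let-7i. Within the other 21 calves (8 HI, 13 MOD) the log2 difference was -0.043 for let-7a-5p, -0.066 for let-7f, -0.16 for let-7i and 0.15 for miR-98. Within the 9 (7 HI, 2 MOD) it was 0.099, 0.066, 0.23 and -0.025. For let-7d it was 0.063 within the 9 and -0.033 within the other 21. No member was called with the class as a term, and what the class stands for was not tested.

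No member was called between the classes of sequencing depth, with diet as the only other term. The calves with the lowest animal codes all had shallow libraries, so the depth classes overlap with that class. A depth difference with the class of animal codes held was not tested. Between deep and shallow libraries, with diet in the model, the log2 difference of the members ran from -0.046 for let-7c to 0.16 for let-7b (95% interval -0.030 to 0.35), which was larger than the diet difference of that member, and limma gave adjusted p-values of 0.783 or more, with 0 of 9 members and 0% of all miRNAs called. The diet difference of miR-98 was 0.31 on the log2 scale in the deep libraries (3 HI, 6 MOD) and 0.038 in the shallow ones (12 HI, 9 MOD). The interaction of diet and depth class for miR-98 was 0.27 (SE 0.30, limma adjusted p = 0.999), and 0 of 9 members and 0% of all miRNAs passed that test.

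The members varied unequally between calves. The SD of the log2 level over the 30 calves was 0.096 for let-7e and 0.11 for let-7g and let-7d, 0.20 to 0.23 for let-7c, let-7f, let-7a-5p and let-7b, 0.36 for miR-98 and 0.41 for let-7i. As a scale, the 115 tested miRNAs outside the family that were at least as abundant as let-7d had a median SD of 0.31, and 7 of the 9 members lay below it. Only 0.870% of those 115 had a smaller SD than let-7e, let-7g or let-7d, while 70.4% had a smaller SD than let-7i and 60% a smaller one than miR-98. These shares depended on the scale, and with no TMM factor they were 13% for let-7e, 8.70% for let-7g, 26.1% for let-7d and let-7i and 61.7% for miR-98. On the TMM scale without the 9 libraries high in the pituitary list, that median was 0.23, and 6 of the 9 members lay below it. This order of the members held in part on the other scale. Per 1000000 reads with no TMM factor, the SD was smallest for let-7f (0.13) and let-7a-5p (0.15), 0.17 for let-7g, 0.20 for let-7e and 0.25 for let-7d and let-7i, and largest for miR-98 (0.45). On that scale 8 of the 9 members, let-7i included, lay below the median of the 115 miRNAs (0.35), and miR-98 lay above it on both scales.

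The spread of let-7i lay largely in the libraries high in the pituitary list. Its 5 highest calves, HI calf 7 (15771 CPM), HI calf 6 (13501 CPM), MOD calf 12 (11981 CPM), MOD calf 4 (11551 CPM) and HI calf 2 (10525 CPM), were the 5 calves with the highest pituitary list. In the 9 libraries high in that list let-7i ranged from 6519 to 15771 CPM with a median of 10525 CPM, and in the other 21 from 4926 to 8432 CPM with a median of 6390.4 CPM. Of the 9 highest let-7i values, 6 came from the 9 libraries high in the list. HI calf 9, MOD calf 9 and HI calf 14, also high in it, were at 7430, 7079 and 6519 CPM, within the range of the other 21. Without the 9 libraries, the SD of the log2 level of let-7i was 0.21 and its highest value was 1.71-fold the lowest. With no TMM factor the same 5 calves were the highest, at 8961 to 11153 per 1000000 reads, and the SD went from 0.25 over all calves to 0.13 without the 9 libraries. For let-7c the scales differed. On the TMM scale its SD went from 0.20 to 0.10 without the 9 libraries, and its values were 4997 to 8462 CPM in them and 4633 to 6023 CPM in the others, but per 1000000 reads the SD was 0.17 both with and without them and the ranges were 4648 to 6502 and 4071 to 6239. The spread of let-7a-5p changed little on either scale, with an SD of 0.23 over all calves and 0.24 without the 9 on the TMM scale and 0.15 and 0.14 with no TMM factor. The 5 calves with the highest list belonged to both diets (3 HI, 2 MOD), and without the 9 libraries no member was called and the log2 fold change was 0.059 for let-7i, against 0.10 with them, and 0.17 for miR-98, against 0.094 with them. The summed level of the neuronal list was 17944 to 60965 CPM in the same 9 libraries against 49884 to 88539 CPM in the other 21. That of the vessel wall list was 57038 to 338016 CPM against 49072 to 207288 CPM, with ranges that overlapped over much of their length. The part of other cell types or tissue in these levels was not tested.

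In those same calves miR-98 was rather low. Its values were 3608 to 7520 CPM in the 9 libraries, with a median of 4691 CPM, and 3824 to 9535 CPM in the other 21, with a median of 6147 CPM. Per 1000000 reads with no TMM factor, these medians were 4314 and 6668. It stood above let-7i in 10 of 30 calves, of which 1 was among the 9. The spread of miR-98 was also present without them, with an SD of 0.32 and 2.49-fold between the lowest and the highest calf. Its highest levels, 9535 CPM in HI calf 4 and 8814 CPM in HI calf 15, came from calves low in the pituitary list.

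**Figure D3:**
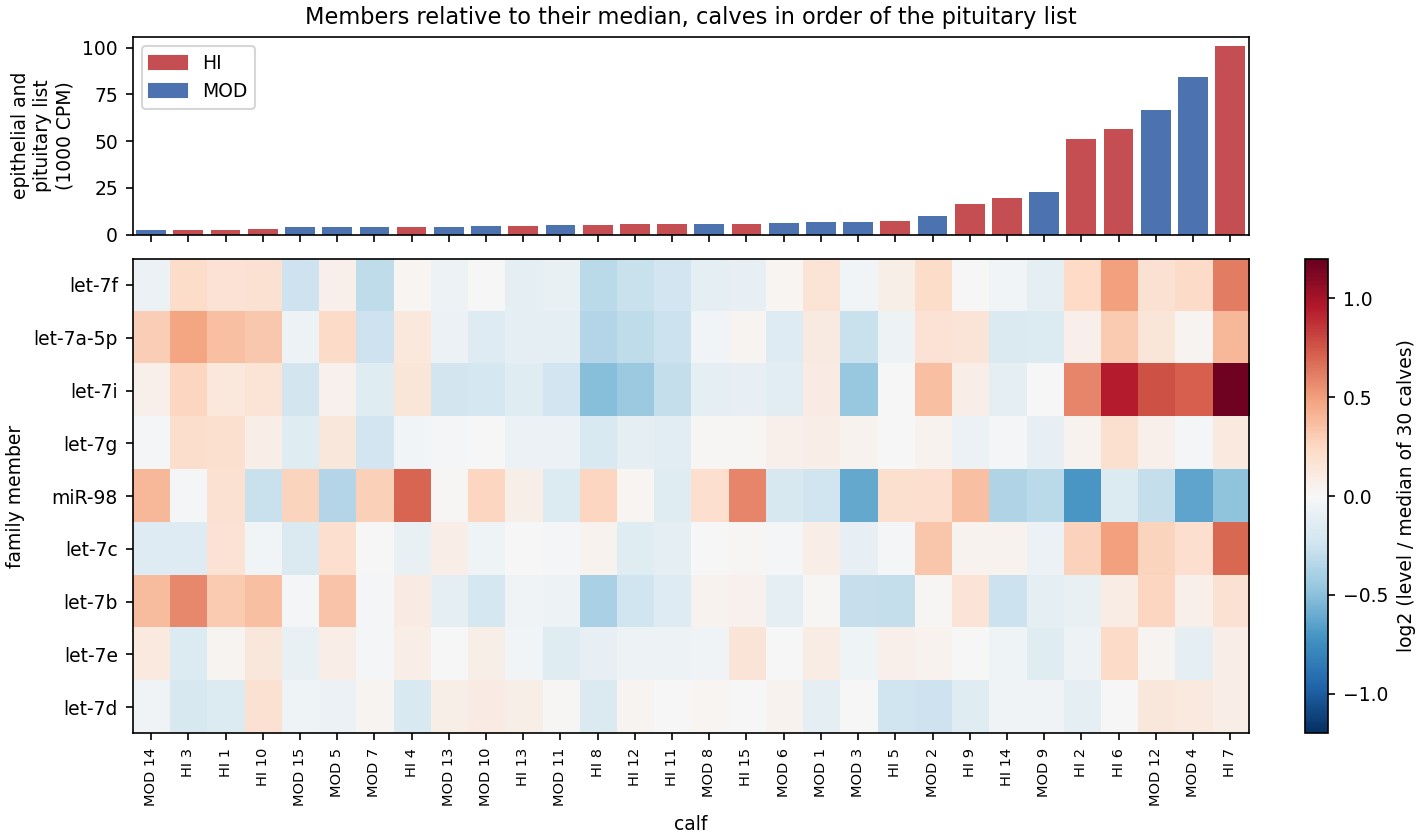
Upper panel, summed level of the miRNAs of pituitary and other epithelium (1000 CPM) in each calf, in rising order, HI in red and MOD in blue. Lower panel, log2 level of each member relative to its median over the 30 calves, where let-7i is highest (dark red) in the 5 calves on the right and miR-98 is below its median (blue) in the same 5 calves.

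On the TMM scale, single calves stood at the end of the range for several members at once. HI calf 7 had the highest let-7c, let-7f and let-7i, HI calf 3 the highest let-7a-5p, let-7b and let-7g, and HI calf 8, the library with the fewest reads, the lowest let-7a-5p, let-7b, let-7f and let-7i. Most of these extremes belonged to other calves per 1000000 reads with no TMM factor, where HI calf 10 had the highest let-7a-5p, let-7b and let-7f and HI calf 7 the lowest let-7b, let-7d, let-7g and miR-98. HI calf 8 had the lowest let-7i on both scales. The makeup of the family, which does not depend on the scale, also differed between these calves. In HI calf 7, let-7i took 17.9% of the summed level of the family and miR-98 took 4.75%, the highest and the lowest shares of these members in any calf. In HI calf 8, let-7i took 9.15%, its lowest share, and in HI calf 4 miR-98 took 13.8%, its highest. Mean shares hardly differed by diet, at 11.8% ± 2.57 in HI and 11.5% ± 2.21 in MOD calves for let-7i and 9.38% ± 2.89 and 9.06% ± 2.20 for miR-98 (SD, n = 15 each).

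The members come from 12 precursor genes at 8 places in the genome, by RefSeq's annotation of ARS-UCD2.0, which is not the assembly the authors aligned to, with genes within 100 kb counted as neighbours. One cluster holds MIRLET7A-1, MIRLET7F-1 and MIRLET7D, and another holds MIRLET7A-3 and MIRLET7B. MIRLET7F-2 lies beside MIR98 within HUWE1, the gene of a ubiquitin ligase. Of the rest, MIRLET7A-2, MIRLET7C and MIRLET7E each have a neighbour of the miR-99 and miR-100 family and a neighbour of the miR-125 family, while MIRLET7G and MIRLET7I have no other listed miRNA nearby. In several cases the mature miRNA of a cluster thus also comes from another place, and its level cannot be divided between its genes.

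How closely members moved together was described by the SD over calves of the log2 ratio of their levels, where a small SD means a nearly fixed ratio. Over the 36 pairs its median was 0.24. The steadiest ratios were those of let-7e to let-7g (0.11), which come from different places, and of let-7a-5p to let-7b (0.11), which share a cluster. Sharing a place did not go with a steadier ratio in general. The 5 pairs with neighbouring precursors had a median SD of 0.24, from 0.11 to 0.49, and the other 31 pairs had a median of 0.24, from 0.11 to 0.63. The pair of let-7f and miR-98, both with a precursor in HUWE1, was at 0.49, and the ratio of let-7i to miR-98 was the least steady at 0.63, with a 5.38-fold difference between calves.

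Without the 9 libraries high in the pituitary list, the SD of the log2 ratio was smaller for 26 of the 36 pairs and larger for 10. The fall was marked for ratios to let-7i. The SD for let-7a-5p and let-7i, with no shared place in the genome, went from 0.29 over all calves to 0.097 over the other 21, and that for let-7i and miR-98 from 0.63 to 0.35, with 2.30-fold between calves. The SD for let-7f and let-7g went from 0.15 to 0.076. Among the ratios that were not steadier were those of let-7a-5p to let-7c (0.22 and then 0.24), let-7b to let-7d (0.25 and then 0.29) and let-7b to let-7e (0.22 and then 0.25). The ratios of miR-98 to let-7f and let-7a-5p were at 0.39 and 0.38 without the 9 libraries. These SDs are a description over calves and do not depend on the scaling. Reads shared among near-identical members would also hold a ratio steady.

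**Figure D4:**
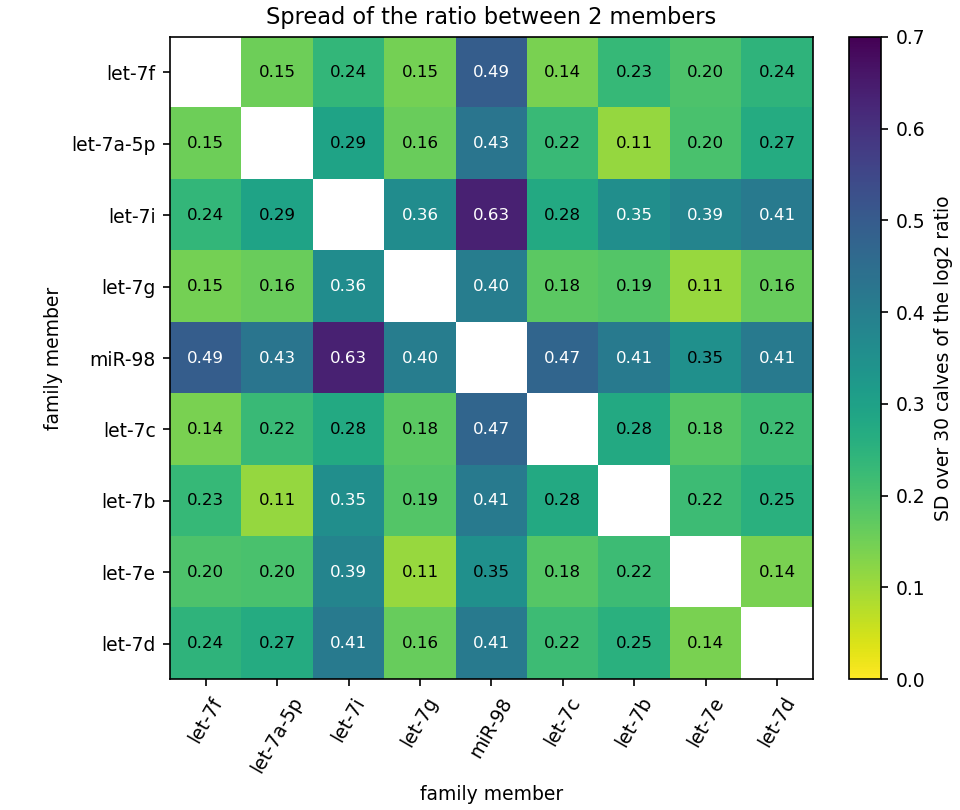
SD over 30 calves of the log2 ratio between each 2 members, printed in each cell, from light (steady ratio) to dark (loose ratio). The row and column of miR-98 are darkest, from 0.35 with let-7e to 0.63 with let-7i, and the lightest cells are let-7a-5p with let-7b and let-7e with let-7g.

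The other arm of a precursor was listed for let-7a alone. Its 3′ arm, let-7a-3p, is the strand that is mostly degraded, and it stood at 80.6 ± 11.2 CPM (SD, n = 30), with a range of 60.3 to 106 CPM in HI calves and 67.2 to 109.8 CPM in MOD calves. The level of let-7a-5p was 155 to 346 times that of let-7a-3p, with a median of 208 in HI and 190 in MOD calves. The diet difference of let-7a-3p was a log2 fold change of -0.043 (SE 0.077, limma adjusted p = 0.982). On the TMM scale, the highest let-7a-3p was that of MOD calf 14, and the lowest was that of HI calf 7. The table also lists miR-3596, whose gene overlaps that of let-7b in RefSeq, and it had 0 reads in every library, which allows up to 0.138 to 0.558 CPM depending on depth (3 reads, counting error only).

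The miRNAs that lie beside let-7 genes but have other seeds were miR-100, miR-99a-5p, miR-99b, miR-125a and miR-125b, and 0 of 5 were called or had an unadjusted p under 0.05. The log2 fold changes were 0.28 (SE 0.16) for miR-100 and 0.29 (SE 0.17) for miR-99b, with limma adjusted p-values of 0.912 for both. Within the code classes they were -0.11 and 0.10 in the 9 calves with the lowest codes and -0.0099 and -0.075 in the other 21. They were -0.096 and -0.17 in the deep libraries (3 HI, 6 MOD) and 0.34 and 0.36 in the shallow ones (12 HI, 9 MOD). The calves with the lowest codes all had shallow libraries. Their medians were 7133 CPM for miR-100 and 8834 CPM for miR-99b, against 3578 and 4678 CPM in the other 21. The other neighbours were at 0.11 (SE 0.16) for miR-99a-5p, -0.10 (SE 0.091) for miR-125a and -0.060 (SE 0.072) for miR-125b. The SD of the log2 ratio of let-7c was 0.17 to its neighbour miR-125b and 0.29 to its neighbour miR-99a-5p, while let-7d and let-7g, which are no neighbours of miR-125b, also had an SD of 0.17 to it. For let-7a-5p the SD was 0.28 with its neighbour miR-125b and 0.37 with its neighbour miR-100, and for let-7e it was 0.25 with miR-125a and 0.49 with miR-99b. Known to act on LIN28 transcripts, and so upstream of let-7, are miR-125a, miR-125b and miR-9-5p, and 0 of 3 were called. The log2 fold change of miR-9-5p was -0.0086 (SE 0.21).

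Outside the family, the miRNAs whose levels kept the steadiest ratio to the family sum over the 30 calves were miR-532, miR-339a and miR-339b, with SDs of the log2 ratio of 0.14, 0.14 and 0.15, beside a median of 0.44 over the tested miRNAs outside the family. Among the 67 miRNAs with a mean above 1000 CPM and at least the spread of the family sum, miR-532, miR-192 (0.16) and miR-30a-5p (0.17) came first.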

How the data were processed

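Small RNA was sequenced from the ARC of 30 calves, 15 HI and 15 MOD by the sample labels. According to the methods of the study, the authors cut off adapters with Cutadapt and took on inserts of 15 to 28 bases, from which rRNA and further classes of short RNA were filtered. They quantified known bovine miRNAs with miRDeep2 and Bowtie on ARS-UCD1.2. The labels name a stranded RNA kit where the methods name a small RNA kit, and the submitters' processing notes name FastQC 0.11.8 and cutadapt 2.6. Library kits ligate some miRNAs better than others, which can change levels between members. The signal values the authors deposited, 1 column per calf, are decimals in the form of CPM over TMM-scaled library sizes. Whole reads were recovered from the step between values. Of values up to 200 reads, 94.5% to 97.9% were whole within 0.1 read. Because the deposited values are not counts, limma (lmFit, eBayes with trend) was used on log2(value + 0.25), over the 476 miRNAs that passed edgeR's filterByExpr on recovered reads, with Benjamini-Hochberg adjustment over all of them. The count tests, edgeR's quasi-likelihood test and DESeq2, were alternatives over 29 libraries, since for HI calf 6 a separate check, on multiples of the smallest step between values, gave 94.8% against the 95% needed. Fold changes are on the log2(value + 0.25) scale. Depth class was a split at the widest gap in reads, and the pituitary class a split at the widest gap in the mean log2 level of its list. Levels per 1000000 reads with no TMM factor (each value over the total of its column) were added after the data were seen. Replicate numbers name calves within a diet only. Each library is 1 calf, so p-values measure the spread between calves.

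Besides the members, named miRNAs were let-7a-3p, the neighbours of let-7 genes, miRNAs known to act on LIN28, those with the steadiest ratio to the family sum, and lead miRNAs of marker lists. The members and lists were chosen with earlier results of these data known. Gene names and neighbours came from RefSeq's ARS-UCD2.0 annotation, in which all 12 precursor genes were found. The other marker lists were for oligodendrocytes, erythroid cells, leukocytes, vessel wall, choroid plexus and ependyma, and liver. The limma step was tested on simulated data. Versions were limma 3.58.1, edgeR 4.0.16 and DESeq2 1.42.0 in R 4.3.3, and scipy 1.17.1 and numpy 2.4.6 in Python 3.11.15.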

Additional observations from a re-analysis of the deposited data

How the results depend on the processing

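No family member was called between the diets under any of the 11 alternative settings or with any of the 30 calves left out in turn. Over all miRNAs tested, 0 were called by limma and by edgeR's quasi-likelihood test (16 at an unadjusted p under 0.05), and 1 by DESeq2's Wald test (19 at an unadjusted p under 0.05). With 1 calf left out the count was 0 to 1, with 1 called without HI calf 11 and without MOD calf 15. The 21 miRNAs at an unadjusted p under 0.05 in limma were 10 with library size only and 10 with the class of animal codes as a term. Single calves moved this number as well, for example to 14 without HI calf 2 and to 35 without MOD calf 2. Signs were less stable than calls. With the class of animal codes as a term, the log2 fold change turned negative for let-7a-5p (-0.0094), let-7b (-0.029), let-7c (-0.026), let-7f (-0.035), let-7g (-0.019) and let-7i (-0.065). With library size only, it did so for let-7b (-0.029), let-7e (-0.015) and let-7g (-0.016), and without the libraries high in the pituitary list for let-7c (-0.018). For let-7b, leaving out 1 calf gave -0.025 to 0.044, negative without HI calf 1, HI calf 3, HI calf 10, MOD calf 3 or MOD calf 10. Leaving out 1 calf also gave 0.055 to 0.11 for let-7a-5p, 0.036 to 0.10 for let-7f, 0.013 to 0.041 for let-7e, 0.011 to 0.040 for let-7g and -0.073 to -0.043 for let-7d. The cause was not tested. The signs of let-7d and miR-98 held in all these settings, though let-7d was at -0.010 with the class of animal codes as a term. Within the 9 calves with the lowest codes (7 HI, 2 MOD) both signs were the other way, at 0.063 for let-7d and -0.025 for miR-98. No paired analysis was possible because each calf belonged to 1 diet and replicate numbers only name calves. According to the methods of the study, the diets were balanced in age, bodyweight, farm and sire. The farm and sire of each calf were not known here, so neither was a term. Depth does not limit the members, the least abundant of which had 2778 reads or more per library.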

Other observations

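The lists of other cell types were set beside the family as values, with no test of their part in it. The vessel wall list (miR-143, miR-145 and both arms of miR-126) had a summed level of 49072 to 265524 CPM in HI calves and 58388 to 338016 CPM in MOD calves. The erythroid list (miR-451, miR-144 and miR-486) was at 21182 to 39732 CPM and 23713 to 40320 CPM, the choroid plexus and ependyma list, led by miR-204, at 22236 to 44588 CPM and 23055 to 39630 CPM, the oligodendrocyte list at 1254 to 11332 CPM and 1811 to 5800 CPM, and the leukocyte list at 1053 to 1861 CPM and 1114 to 2192 CPM. The liver miRNA miR-122 was at 0 to 2.69 CPM in HI calves and 0 to 14.2 CPM in MOD calves. Of the 35 tested miRNAs of these lists and of the neuronal and pituitary lists, 0 had a limma adjusted p under 0.1, and 1 had an unadjusted p under 0.05, beside 4.41% of all miRNAs tested. That 1 was miR-145, named after its values were seen.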
